A study of Homo sapiens with 6 samples.

Results

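The miRNAs described here were 6 mature miRNAs from 3 groups that respond to oxygen or nutrient supply. They were hsa-miR-210-3p and hsa-miR-210-5p, hsa-miR-103a-3p and hsa-miR-107, and hsa-miR-33a-5p and hsa-miR-33b-5p, named without the species prefix from here on. They were chosen by name, as 6 of the 787 mature miRNAs in the deposited table. The table covers 6 small RNA libraries of A549, an established line derived from a human lung adenocarcinoma. In 3 libraries the cells had received the plasmid pcDNA4-SMARCA4 and in the other 3 the plasmid pcDNA4 without an insert (empty vector), and RNA was taken 48 h after transfection in both groups. SMARCA4, also called BRG1, is an ATPase that drives SWI/SNF, a complex that remodels chromatin, and the labels speak of restoring it in A549. Both groups were transient transfections of the same line, the labels name no low-oxygen or sterol treatment, and the replicates are described as biological and independent in the design text. The level of SMARCA4 itself was not analysed here.

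miR-210 is the miRNA most widely induced by the hypoxia-inducible factor HIF1A, and its 3p arm represses ISCU, a scaffold for iron-sulphur clusters, and other genes of mitochondrial respiration. miR-103a-3p and miR-107 lie in introns of pantothenate kinase genes, whose products start coenzyme A synthesis. They repress CAV1, a caveolin that stabilises the insulin receptor, and DICER1, the enzyme that cuts miRNA precursors. miR-33a and miR-33b lie in introns of SREBF2 and SREBF1, the transcription factors of sterol and fatty acid synthesis, and repress ABCA1, which exports cholesterol. Levels of single miRNAs within these groups can differ because the hairpins come from different genes, or because a cell keeps different amounts of the arms of a hairpin.

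The mature sequences below show which of these miRNAs share a seed, the stretch that pairs with targets. They are from RefSeq (GRCh38.p14), 5′ to 3′, with the seed (bases 2 to 8) in capitals, and all 6 names were matched.
miR-210-3p: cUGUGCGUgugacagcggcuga
miR-210-5p: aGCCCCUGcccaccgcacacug
miR-103a-3p: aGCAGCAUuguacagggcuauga
miR-107: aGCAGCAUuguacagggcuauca
miR-33a-5p: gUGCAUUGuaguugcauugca
miR-33b-5p: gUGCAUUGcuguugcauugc

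miR-103a-3p and miR-107 shared the seed GCAGCAU and 22 of 23 bases, and differed by C22G (the base of miR-107, its position from the 5′ end, the base of miR-103a-3p). miR-33a-5p and miR-33b-5p shared the seed UGCAUUG and 18 of the 20 bases compared, and differed by U9C and A10U (the base of miR-33a-5p first), while miR-33a-5p ran 1 base longer. Among the 689 miRNAs of the table with a RefSeq sequence, no other entry held any of these 4 seeds. The arms of miR-210 have unlike seeds. How the authors' counting treated reads that fit both miR-103a-3p and miR-107 was not among the facts given in the sources, so a read that ends before base 22 could have been given to either.

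On GRCh38, miR-210-3p lies at chr11:568112-568133 and miR-210-5p at chr11:568150-568171, on the minus strand, in an intron of the lincRNA gene MIR210HG. miR-103a-3p has a pair of identical copies, at chr5:168560904-168560926 on the minus strand in an intron of PANK3 and at chr20:3917541-3917563 on the plus strand in an intron of PANK2. miR-107 lies at chr10:89592756-89592778 on the minus strand in an intron of PANK1. miR-33a-5p lies at chr22:41900949-41900969 on the plus strand in an intron of SREBF2, and miR-33b-5p at chr17:17813897-17813916 on the minus strand in an intron of SREBF1. Each hairpin has the strand of its host gene in GENCODE 29. The hairpins of miR-210, miR-33b and miR-33a are printed with their mature arms in capitals, because values of both arms are given below.
MIR210: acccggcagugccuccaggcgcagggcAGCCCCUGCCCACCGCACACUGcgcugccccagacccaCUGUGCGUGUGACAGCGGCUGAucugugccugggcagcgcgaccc
MIR33B: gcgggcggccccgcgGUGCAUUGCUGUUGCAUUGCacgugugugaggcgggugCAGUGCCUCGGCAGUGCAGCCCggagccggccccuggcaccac
MIR33A: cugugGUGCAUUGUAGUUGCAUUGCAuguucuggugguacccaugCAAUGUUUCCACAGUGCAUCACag

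Values are normalized read counts, which are whole reads multiplied by 1 factor per library. The libraries held 701885, 7274329 and 767810 reads on miRNAs in SMARCA4 replicates 1, 2 and 3, and 881370 to 1079944 in the empty vector libraries. SMARCA4 replicate 2 thus held 8.33 times the mean of the others. Its normalized counts summed to 3073322, against 1661870 to 1835229 in the other libraries. A count of 0 allows up to 3 reads, or 7.84, 1.27 and 7.08 normalized counts in SMARCA4 replicates 1, 2 and 3 and 4.91 to 5.71 in the empty vector libraries, counting error only. Of 8 epithelial markers (the miR-200 family and others) 7 were measured, with a summed level of 727 to 914 normalized counts with SMARCA4 and 599 to 863 with the empty vector. Among them 5 had a positive and 2 a negative log2 fold change. miR-141-3p and miR-203a-3p rose (limma adjusted p = 0.0124 each), while miR-200b-3p, the most abundant over all libraries, was at 190 ± 51.8 with SMARCA4 and 422 ± 122.99 with the empty vector (SD, n = 3 each; limma adjusted p = 0.109). Of 8 blood cell markers 3 were measured, nearly all of it miR-486-5p, and their summed level was 7962 to 14458 with SMARCA4 and 5621 to 7213 with the empty vector. Of 6 endothelial and mesenchymal markers 5 were measured, with sums of 1322 to 1450 with SMARCA4 and 797 to 1532 with the empty vector, and miR-214-3p was at 0 throughout. The muscle miRNAs miR-1-3p and miR-133a-3p were at 0 in all 6 libraries. The part of the blood cell markers in the results below was not tested.

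With SMARCA4, 5 of the 6 miRNAs had a higher mean, by 1.17-fold for miR-103a-3p and by 1.84-fold to 2.73-fold for miR-33b-5p, miR-107, miR-210-5p and miR-210-3p, and miR-33a-5p had a lower mean. None passed the test over the whole table (limma, Benjamini-Hochberg adjusted p under 0.05), against 1.41% of the 637 miRNAs tested, and edgeR called none, against 1.26% of the same miRNAs. By limma the unadjusted p was under 0.05 for 5 of the 6, against 22.6% of all tested. By edgeR and DESeq2 it was under 0.05 for miR-210-3p, miR-107 and miR-33a-5p only. For miR-210-5p it was 0.0519 by edgeR and 0.0634 by DESeq2, and for miR-33b-5p 0.0581 by edgeR and 0.0894 by DESeq2. Of the 637 miRNAs, 153 had an unadjusted p under 0.05 by edgeR and 115 by DESeq2. The groups of 3 libraries did not overlap for 5 of the 6, against 31.1% of all tested, with 4 higher with SMARCA4 (15.9% of all) and 1 lower (15.2% of all). When limma weighted the libraries by their estimated reliability (array weights), 4 of the 6 passed, against 14.1% of all tested. The median log2 fold change was 1.08 for the 6 and −0.05 for all tested miRNAs. These are bulk libraries, so a change in a share of the cells and a smaller change in every cell cannot be told apart.

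**Figure D1:**
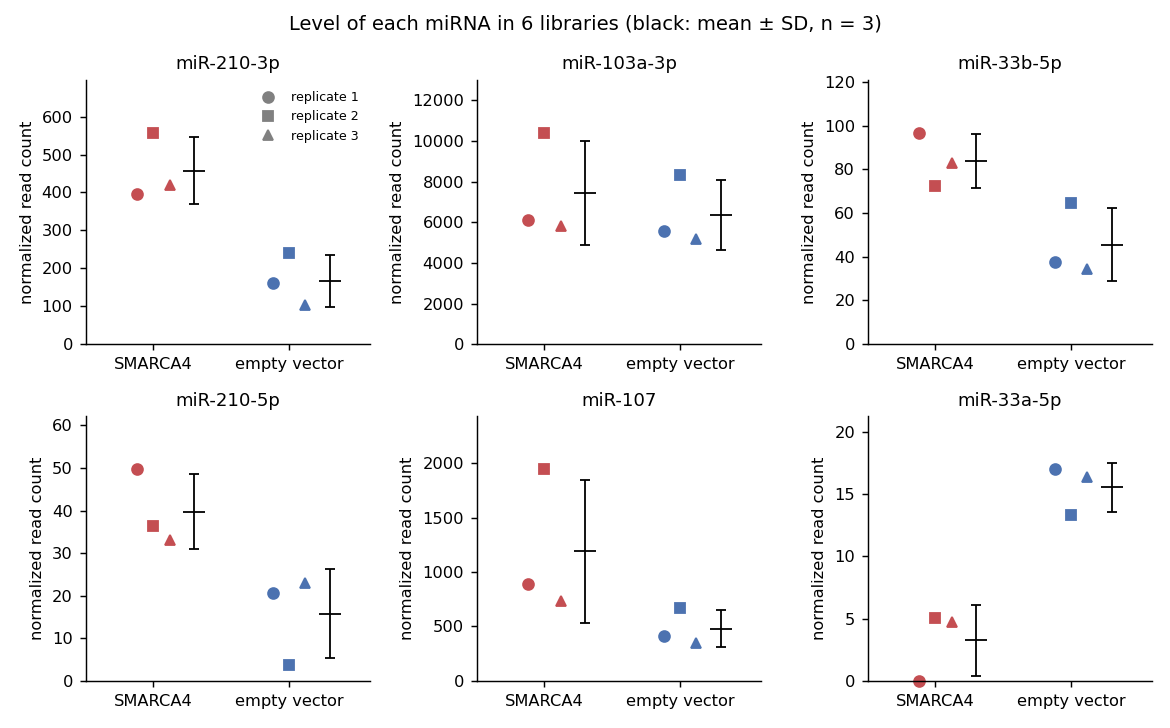
Normalized read counts (y axes, linear from 0) of the 6 miRNAs in each library, with SMARCA4 in red and empty vector in blue, symbols for replicates and black bars for mean ± SD (n = 3). The groups overlap for miR-103a-3p only, and miR-33a-5p alone is lower with SMARCA4.

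miR-210-3p, the main arm of the hypoxia miRNA, had 395, 558 and 420 normalized counts in SMARCA4 replicates 1, 2 and 3 (151, 1320 and 178 reads), against 160, 240 and 103.01 in empty vector replicates 1, 2 and 3 (63 reads at the least). Every SMARCA4 library lay above every empty vector library, and empty vector replicate 2 was the highest of its group. The means were 458 ± 87.6 with SMARCA4 and 168 ± 68.6 with the empty vector (SD, n = 3 each). The difference, 2.73-fold, was a log2 fold change of 1.51 (SE 0.37, 95% interval 0.68 to 2.34) and did not pass (limma adjusted p = 0.0656). By unadjusted p it stood 24th of the 637 miRNAs. Without empty vector replicate 2 the log2 fold change was 1.81 and passed (limma adjusted p = 0.0494), as did 1.88% of all tested miRNAs, and DESeq2 on the recovered reads called it (log2 fold change 1.43, adjusted p = 0.0166), where that tool called 10.4% of the miRNAs with a defined adjusted p.

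miR-210-5p, the scarce arm of the same hairpin, had 49.7, 36.3 and 33.1 normalized counts in SMARCA4 replicates 1 to 3 and 20.7, 3.804 and 22.9 in empty vector replicates 1 to 3. The groups did not overlap, but empty vector replicate 2 rested on 2 reads, under the limit of 3. The means were 39.7 ± 8.81 with SMARCA4 and 15.8 ± 10.5 with the empty vector (SD, n = 3 each), 2.51-fold apart (log2 fold change 1.56, SE 0.64, 95% interval 0.11 to 3.02, limma adjusted p = 0.190). Without empty vector replicate 2 the log2 fold change was 0.81. The empty vector library with the most miR-210-3p was thus the one with the least miR-210-5p. The 3p arm was 7.81, 14.96 and 12.4 times the 5p arm in SMARCA4 replicates 1 to 3 and 7.42, 50.1 and 4.35 times in empty vector replicates 1 to 3 (1 added to each value). The log2 ratio of the arms averaged 3.50 ± 0.48 with SMARCA4 and 3.55 ± 1.85 with the empty vector (SD, n = 3 each), a difference smaller than the spread (exact two-sided permutation p = 1).

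miR-103a-3p, the most abundant of the 6, had 6132, 10404 and 5799 normalized counts in SMARCA4 replicates 1 to 3 and 5589, 8309 and 5164 in empty vector replicates 1 to 3. The groups overlapped, and replicate 2 was the highest library in each. SMARCA4 replicate 2 also had the largest sum of normalized counts of all libraries. The means were 7445 ± 2568 with SMARCA4 and 6354 ± 1707 with the empty vector (SD, n = 3 each), with a limma adjusted p of 0.723 for a log2 fold change of 0.21 (SE 0.32). The 95% interval of the change ran from −0.52 to 0.94. The sign was negative when all libraries were given the same total (−0.12), after quantile normalization (−0.062) and without SMARCA4 replicate 2 (−0.059). The fragment from the other arm of the MIR103A2 hairpin, miR-103a-2-5p, was at 2.61, 2.96 and 7.08 normalized counts in SMARCA4 replicates 1 to 3 and at 0, 3.804 and 1.64 in empty vector replicates 1 to 3, which is 7 reads or fewer in each library.

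miR-107, with the same seed, had 894, 1943 and 730 normalized counts in SMARCA4 replicates 1 to 3 (342, 4599 and 309 reads) and 413, 669 and 348 in empty vector replicates 1 to 3 (219, 352 and 213 reads). The groups did not overlap, and SMARCA4 replicate 2 lay far above the rest. It was also the library with the largest sum of normalized counts. The means were 1189 ± 658 with SMARCA4 and 477 ± 170 with the empty vector (SD, n = 3 each), 2.49-fold apart (log2 fold change 1.24, SE 0.42, 95% interval 0.29 to 2.184, limma adjusted p = 0.124). Without SMARCA4 replicate 2 the log2 fold change was 0.82 (limma adjusted p = 0.136). With all libraries given the same total it was 0.91 (limma adjusted p = 0.171).

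The ratio of miR-107 to miR-103a-3p within a library hardly depends on scaling between libraries. It was 0.146, 0.187 and 0.126 in SMARCA4 replicates 1 to 3, against 0.0741, 0.0807 and 0.0676 in empty vector replicates 1 to 3. All SMARCA4 libraries lay above all empty vector libraries, and the ranges of the groups were well apart. On the log2 scale the ratio averaged −2.73 ± 0.29 with SMARCA4 and −3.76 ± 0.13 with the empty vector (SD, n = 3 each), a difference of 1.03 (exact two-sided permutation p = 0.1, the smallest that 3 against 3 libraries allow). With any 1 library left out the difference was 0.88 to 1.16. As a share of the reads of both, miR-107 made up 12.7% (95% Wilson interval 11.5% to 14.0%), 15.7% (15.3% to 16.2%) and 11.2% (10.1% to 12.4%) in SMARCA4 replicates 1 to 3. In empty vector replicates 1 to 3 it made up 6.88% (6.05% to 7.81%), 7.46% (6.74% to 8.24%) and 6.32% (5.55% to 7.19%).

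miR-103a-3p and miR-107 were the only entries with a RefSeq sequence that held the seed GCAGCAU. Their summed level was 8634 ± 3226 normalized counts with SMARCA4 and 6831 ± 1876 with the empty vector (SD, n = 3 each), 1.26-fold apart. As a share of all miRNA reads the sum was 0.382% ± 0.0208 with SMARCA4 and 0.393% ± 0.101 with the empty vector (SD, n = 3 each; exact two-sided permutation p = 0.9). The groups overlapped, and empty vector replicate 2 had the highest share, 0.506% (95% Wilson interval 0.491% to 0.520%). The ratio of miR-210-3p to miR-103a-3p, taken as a comparison after the values were seen, was 0.0645, 0.0537 and 0.0726 in SMARCA4 replicates 1 to 3 and 0.0289, 0.0290 and 0.0201 in empty vector replicates 1 to 3. Its log2 difference was 1.30 with no overlap of the groups (exact two-sided permutation p = 0.1).

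**Figure D2:**
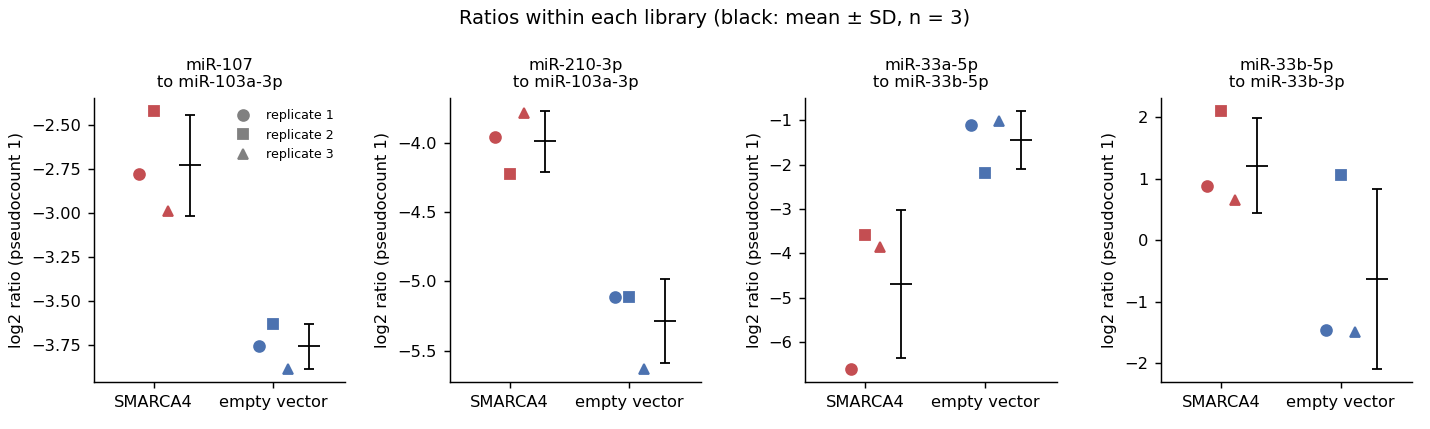
Log2 ratios of pairs of miRNAs within each library (y axes, 1 added to each value), SMARCA4 in red and empty vector in blue, black bars for mean ± SD (n = 3). The groups are apart for miR-107 to miR-103a-3p, miR-210-3p to miR-103a-3p and miR-33a-5p to miR-33b-5p, and overlap for the arms of miR-33b, where empty vector replicate 2 lies within the SMARCA4 values.

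miR-33b-5p, from the SREBF1 intron, had 96.7, 72.2 and 82.6 normalized counts in SMARCA4 replicates 1 to 3 (37, 171 and 35 reads) and 37.7, 64.7 and 34.3 in empty vector replicates 1 to 3 (20, 34 and 21 reads). The groups did not overlap, although empty vector replicate 2 came close to SMARCA4 replicate 2. The means were 83.9 ± 12.3 with SMARCA4 and 45.6 ± 16.6 with the empty vector (SD, n = 3 each), 1.84-fold apart (log2 fold change 0.91, SE 0.39, 95% interval 0.04 to 1.78, limma adjusted p = 0.201). Relative to miR-103a-3p, a comparison that was not planned, the difference was 0.70 on the log2 scale and the groups overlapped (exact two-sided permutation p = 0.2).

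miR-33a-5p, from the SREBF2 intron, had 0, 5.07 and 4.72 normalized counts in SMARCA4 replicates 1 to 3 and 17.0, 13.3 and 16.4 in empty vector replicates 1 to 3. These were 0, 12 and 2 reads with SMARCA4 and 9, 7 and 10 reads with the empty vector. All SMARCA4 libraries lay below all empty vector libraries, but in SMARCA4 replicates 1 and 3 the counts were under the limit of 3 reads. The means were 3.26 ± 2.83 with SMARCA4 and 15.5 ± 1.96 with the empty vector (SD, n = 3 each), with a limma adjusted p of 0.110 for a log2 fold change of −2.34 (SE 0.75, 95% interval −4.04 to −0.63). The size depended on the pseudocount, with a log2 fold change of −1.38 when 5 was added to each value and −2.71 when 0.5 was added, and on SMARCA4 replicate 1, without which it was −1.48.

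The members of this pair, which share a seed, had log2 fold changes of opposite sign. In SMARCA4 replicate 1, 0 of 37 reads of the pair were miR-33a-5p. The limit of 3 reads allows a share of up to 8.11% there, and the 95% Wilson interval was 0% to 9.41%. miR-33a-5p made up 6.56% in SMARCA4 replicate 2 (95% Wilson interval 3.79% to 11.1%) and 5.41% in SMARCA4 replicate 3 (1.495% to 17.7%). In empty vector replicates 1 to 3 it made up 31.0% (17.3% to 49.2%), 17.1% (8.53% to 31.3%) and 32.3% (18.6% to 49.9%). The shares of the groups did not overlap, but counting intervals of some libraries of the 2 groups did, such as those of empty vector replicate 2 and SMARCA4 replicate 2. The log2 ratio of miR-33a-5p to miR-33b-5p averaged −4.69 ± 1.67 with SMARCA4 and −1.44 ± 0.65 with the empty vector (SD, n = 3 each). The difference was −3.25 (exact two-sided permutation p = 0.1), and −3.80 to −2.29 with any 1 library left out. It was −3.63 when 0.5 was added to each value and −2.23 when 5 was added. In SMARCA4 replicate 1, with 0 reads of miR-33a-5p, the log2 ratio of −6.61 depended on the pseudocount. The summed level of miR-33a-5p and miR-33b-5p was 96.7, 77.3 and 87.4 normalized counts in SMARCA4 replicates 1 to 3. In empty vector replicates 1 to 3 it was 54.7, 78.0 and 50.7. The sums overlapped, and averaged 87.1 ± 9.72 with SMARCA4 and 61.1 ± 14.7 with the empty vector (SD, n = 3 each).

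The other arm of the MIR33B hairpin, miR-33b-3p, had 52.3, 16.1 and 51.9 normalized counts in SMARCA4 replicates 1 to 3 and 105.6, 30.4 and 98.1 in empty vector replicates 1 to 3. Replicate 2 was the lowest library in each group, and the groups overlapped (log2 fold change −0.93 with an SE of 0.62, limma adjusted p = 0.401). The 2 arms of this hairpin therefore had log2 fold changes of opposite sign. The ratio of miR-33b-5p to miR-33b-3p was 1.83, 4.29 and 1.58 in SMARCA4 replicates 1 to 3 and 0.363, 2.09 and 0.357 in empty vector replicates 1 to 3. The 5p arm was the higher one in all SMARCA4 libraries and in empty vector replicate 2, and the 3p arm in the other empty vector libraries. The groups overlapped in this ratio, which was chosen after its values were seen (log2 difference 1.84, exact two-sided permutation p = 0.3). miR-33a-3p had at most 3 reads in any library.

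**Figure D3:**
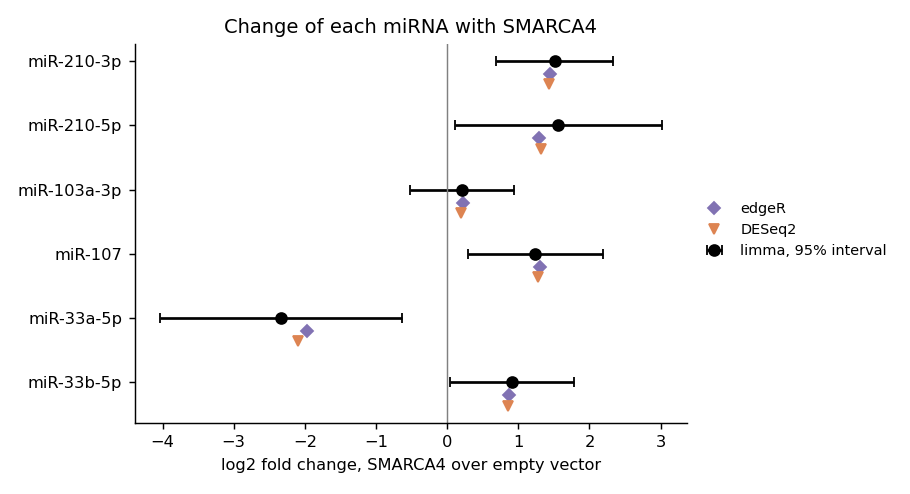
Log2 fold changes (x axis, SMARCA4 over empty vector) of the 6 miRNAs, as black points with 95% intervals by limma, violet diamonds by edgeR and orange triangles by DESeq2. The interval of miR-103a-3p spans 0, those of the others do not, and the 3 tools give the same sign for each miRNA.

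In order of level, the 6 ran in both groups as miR-103a-3p, miR-107, miR-210-3p, miR-33b-5p, miR-210-5p and miR-33a-5p, on the scale of normalized counts per mature miRNA. In the empty vector group the last 2 did not differ beyond their spread, at 15.8 ± 10.5 and 15.5 ± 1.96 normalized counts (SD, n = 3). Adapter ligation differs between miRNAs, so the order is that of the library and not of the cell. miR-210-3p ranked 114th or higher of the 787 miRNAs in every SMARCA4 library, against 146th to 204th in the empty vector libraries. miR-107 ranked 64th to 84th with SMARCA4, against 89th or lower with the empty vector, and these ranges did not overlap either. miR-103a-3p ranked 33rd to 37th with SMARCA4, against 28th to 39th with the empty vector.

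The patterns most like those of these miRNAs over the 6 libraries were found by the root mean square difference of log2 values centred on each miRNA's mean, among 416 other miRNAs with a mean of at least 10. For miR-210-3p they were miR-449c-5p (0.19), miR-181c-5p (0.25) and miR-181a-5p (0.29), where the median over all candidates was 1.01. For miR-107 they were miR-106b-3p (0.15), miR-181b-5p (0.27) and miR-3615 (0.27), with a median of 0.95. For miR-103a-3p they were miR-93-5p (0.14), miR-21-3p (0.20) and miR-365a-5p (0.20), with a median of 0.69. For miR-33b-5p they were miR-361-3p (0.23), let-7b-5p (0.27) and miR-449c-5p (0.27), with a median of 0.81. For miR-210-5p they were miR-212-5p (0.39), miR-146b-5p (0.43) and miR-146a-5p (0.46), with a median of 1.24. miR-33a-5p was too scarce for this comparison.

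The miRNAs were then set beside related lists. Of 8 miRNAs of the wider miR-15 and miR-107 seed group, 7 were tested. All 8 carry AGCAGC in their first bases as miR-103a-3p and miR-107 do, but with other seeds. By limma, 1 of the 7 had an unadjusted p under 0.05, against 22.6% of all tested, and none passed, against 1.41% of all tested. Of the 7, 3 had a positive and 4 a negative log2 fold change, with a median of −0.25. miR-16-5p, the most abundant, was at 15063 ± 1645 normalized counts with SMARCA4 and 13830 ± 3669 with the empty vector (SD, n = 3 each; log2 fold change 0.16). miR-15b-5p was at 466 ± 135 with SMARCA4 and 621 ± 132 with the empty vector (SD, n = 3 each; log2 fold change −0.44).

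Of 19 other miRNAs reported to respond to hypoxia, 16 were tested, 12 had a positive and 4 a negative log2 fold change, and the median was 0.34. Over all 637 tested, 308 had a positive log2 fold change. By limma, 3 of the 16 had an unadjusted p under 0.05, against 22.6% of all tested, and 1 passed, against 1.41% of all tested. It was miR-181c-5p, which rose to 1732 ± 103.3 normalized counts with SMARCA4, against 647 ± 196 with the empty vector (SD, n = 3 each; log2 fold change 1.46, limma adjusted p = 0.0456). It kept its direction in all 18 alternatives but missed the threshold in 8 of them, among them those without SMARCA4 replicate 1 or 3 or empty vector replicate 1 or 3, with limma, edgeR or DESeq2 adjusted p from 0.00188 to 0.189. The most abundant were miR-192-5p, a p53-responsive miRNA, at 271083 ± 29083 with SMARCA4 and 201519 ± 23653 with the empty vector, and miR-181a-5p, at 63130 ± 23020 with SMARCA4 and 20264 ± 9985 with the empty vector (SD, n = 3 each; limma adjusted p = 0.381 and 0.0656). The groups did not overlap for miR-192-5p or for miR-181a-5p, nor did they for 31.1% of all tested. DESeq2 called miR-181a-5p (log2 fold change 1.61, adjusted p = 0.00911) and not miR-192-5p (adjusted p = 0.380). That tool called 10.4% of the miRNAs with a defined adjusted p. miR-155-5p, an inflammatory miRNA that hypoxia also induces, was scarce, at 10.5 ± 13.9 with SMARCA4 and 1.90 ± 1.90 with the empty vector (SD, n = 3 each).

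Of 16 miRNAs that act on sterol or lipid genes, 12 were tested, with 5 positive and 7 negative log2 fold changes and a median of −0.13. By limma, 4 of the 12 had an unadjusted p under 0.05, against 22.6% of all tested, and none passed, against 1.41% of all tested. miR-27b-3p, which represses genes of lipid metabolism, was at 313047 ± 98453 with SMARCA4 and 165481 ± 17898 with the empty vector (SD, n = 3 each; log2 fold change 0.88, limma adjusted p = 0.141). miR-182-5p, which SREBP2 induces, was at 92897 ± 22712 with SMARCA4 and 59621 ± 6726 with the empty vector (SD, n = 3 each; log2 fold change 0.62, limma adjusted p = 0.231).

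miR-103a-3p is often used as a reference in miRNA measurements. Of 9 other miRNAs in common use as references, all were higher with SMARCA4 on the log2 scale (median 0.54), against 308 of 637 tested. By limma, 3 of the 9 had an unadjusted p under 0.05, against 22.6% of all tested, and none passed, against 1.41% of all tested. The most abundant were let-7a-5p, at 145734 ± 149564 with SMARCA4 and 62643 ± 8767 with the empty vector, and miR-191-5p, at 36237 ± 6437 with SMARCA4 and 29318 ± 11332 with the empty vector (SD, n = 3 each; log2 fold changes 0.74 and 0.37). With libraries rescaled to the same total the median change over the 637 tested moved by −0.26 (log2), and the values of miR-210-3p, miR-210-5p, miR-107, miR-33b-5p and miR-33a-5p were 1.19, 1.26, 0.91, 0.60 and −2.65.

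**Figure D4:**
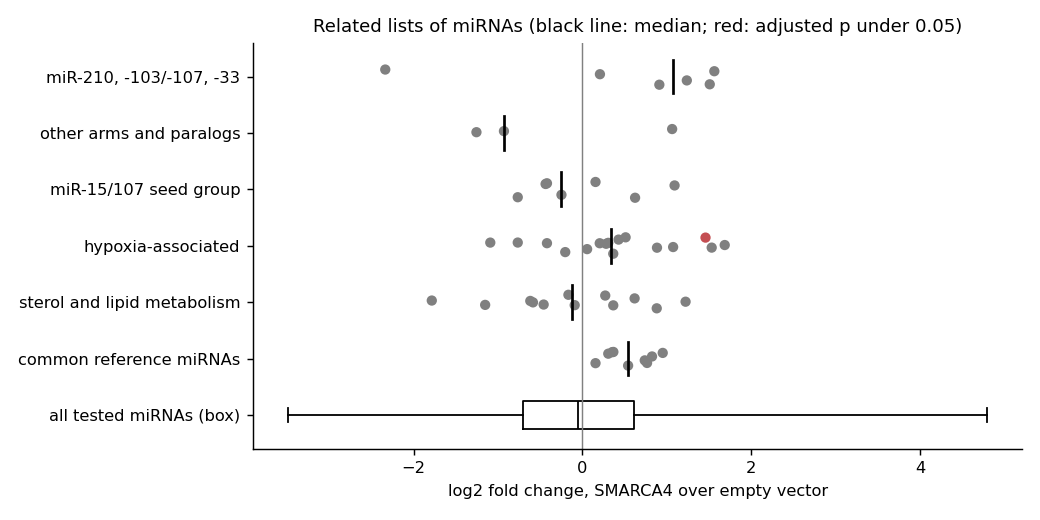
Log2 fold changes (x axis, SMARCA4 over empty vector) of the tested members of each list, with black lines at list medians, red for adjusted p under 0.05 by limma, and a box for all 637 tested miRNAs (quartiles, whiskers to the full range). The median of the 6 miRNAs is 1.08 and that of all tested is −0.05.

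**Figure D5:**
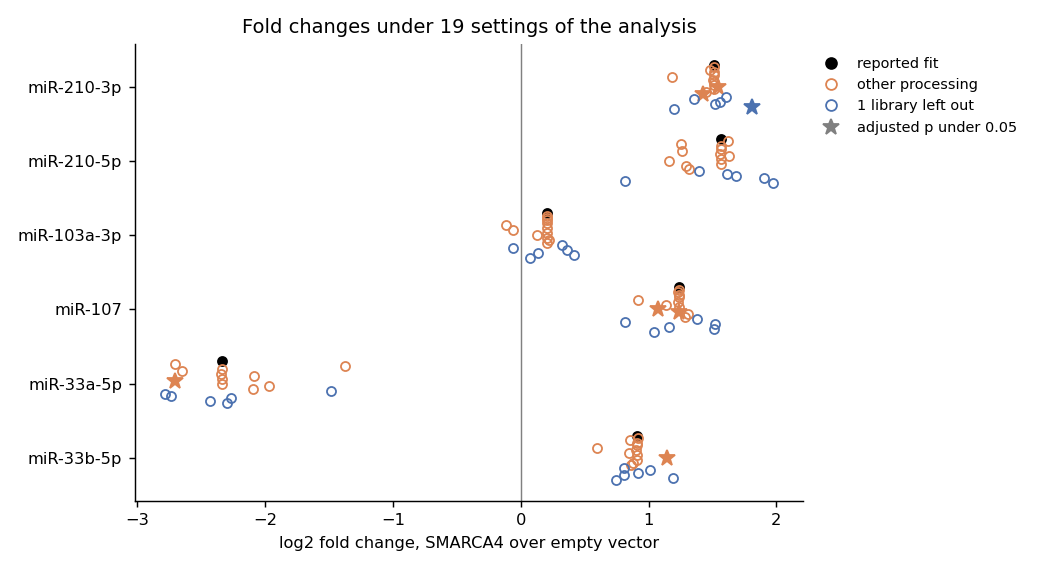
Log2 fold changes (x axis, SMARCA4 over empty vector) of the 6 miRNAs under 19 settings, with the reported fit in black, other processing in orange, fits without 1 library in blue and stars for adjusted p under 0.05. Values of miR-103a-3p lie on both sides of 0, and those of the other 5 miRNAs keep their sign.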

How the data were processed

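The table the authors deposited gives 1 normalized signal for each mature miRNA, and the name of the table speaks of TMM scaling. Each value was a whole multiple of its library's smallest step (100% of values, tolerance 1e-06 reads), so read counts were recovered. The build was GRCh38 and reads were made with bcl2fastq 2.18.0.12, per the submitters' processing notes; for the trimmer, aligner, counter and miRNA annotation nothing is given in the sources used. Groups came from sample titles.

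limma 3.58.1 (R 4.3.3) was fitted to log2(value + 1) with a mean-variance trend and no term but the group, over 637 miRNAs with a mean of at least 1. All 6 miRNAs of interest passed that filter. p-values were adjusted by Benjamini and Hochberg over all 637. Ratios and shares were compared by exact two-sided permutation of libraries. edgeR 4.0.16 and DESeq2 1.42.0, run on the recovered reads of the same 637, were alternatives; DESeq2 left 212 adjusted p-values undefined. The fits were also run on simulated data, with changes larger than those of most of the 6 miRNAs and the same spread for every miRNA. That run therefore does not measure their accuracy on these data.

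The miRNAs, the lists and the tests were chosen with earlier results of these data known. The lists share some miRNAs. Named miRNAs were the 6, the 2 most abundant and any changed of each list, and the 3 nearest patterns to each of the 6; others named were chosen after their values were seen. Wilson intervals of shares cover counting error only, and amplified reads are not independent molecules. Intervals of fold changes are those of the limma fit and reflect the spread between libraries.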

Additional observations from a re-analysis of the deposited data

How the results depend on the processing

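In the 18 alternatives miR-210-3p, miR-210-5p, miR-107, miR-33b-5p and miR-33a-5p kept their direction wherever they were tested; a mean of at least 10 left miR-33a-5p untested. miR-103a-3p reversed to −0.12 with libraries rescaled to the same total, to −0.062 with quantile normalization and to −0.059 without SMARCA4 replicate 2. Leaving out 1 library gave log2 fold changes of 1.20 to 1.81 for miR-210-3p, 0.81 to 1.97 for miR-210-5p, −0.06 to 0.42 for miR-103a-3p, 0.82 to 1.52 for miR-107, −2.78 to −1.48 for miR-33a-5p and 0.74 to 1.19 for miR-33b-5p.

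The number of the 6 that passed was 4 with array weights, 1 with the replicate block, 1 by DESeq2, and 0 to 1 with 1 library left out. With array weights these were miR-210-3p (1.55, adjusted p = 0.0114), miR-107 (1.07, adjusted p = 0.0346), miR-33a-5p (−2.71, adjusted p = 0.0346) and miR-33b-5p (1.14, adjusted p = 0.0394). miR-210-3p also passed by DESeq2 (1.43) and without empty vector replicate 2 (1.81), and its limma, edgeR or DESeq2 adjusted p ranged from 0.0114 to 0.203. Over all miRNAs, 9 passed in the reported fit, 23 with no filter, 90 with array weights, 44 by DESeq2 and 0 to 41 with 1 library left out. Without SMARCA4 replicate 2 that count was 41, without SMARCA4 replicate 3 it was 1, without empty vector replicate 3 it was 2, and it was 0 by limma without SMARCA4 replicate 1 or empty vector replicate 1, where at most 119 had an unadjusted p under 0.05. The cause of these differences was not tested.

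With the replicate number as a block 13 passed over all miRNAs, among them miR-107 (1.24, limma adjusted p = 0.0486). The deviations of same-numbered libraries correlated at 0.07, 0.09 and 0.01. SMARCA4 replicate 3 correlated better with empty vector replicate 1 (0.05), and every other library correlated best with its own number. Correlations this small do not settle whether the numbers pair the libraries.

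The arm ratio of miR-210 changed sign with a pseudocount of 5 (0.23), without SMARCA4 replicate 1 (0.21) and without empty vector replicate 2 (0.99), with a range of −0.77 to 0.99 over libraries left out, and the share of miR-103a-3p and miR-107 without empty vector replicate 2 (0.0449 percentage points, range −0.0518 to 0.0449). The other ratios kept their sign. Few reads limit miR-33a-5p, miR-210-5p and the minor arms.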
